A study of Mus musculus with 107 samples.

Results

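The genes described here are 10 transcripts used as markers of reactive astrocytes, most of which encode secreted proteins: Lcn2, Serpina3n, Chil1, Timp1, Cp, Steap4, Saa2, Tgm1, Myoc and Cd44. They were chosen by name and matched through their mouse Entrez identifiers, and all 10 were found among the 27179 genes counted in each library. The label "secreted" holds for Lcn2, Serpina3n, Chil1, Timp1, Cp, Saa2 and Myoc, whereas Cd44 and Steap4 encode membrane proteins and Tgm1 an enzyme that is largely anchored to membranes. For each gene the level was followed through 23 conditions to see which cue raised it and how far: ciliary neurotrophic factor (CNTF), insulin-like growth factor 1 (IGF-1), fetal bovine serum (FBS), residence in the spinal cord as a graft, or injury of the host.

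RNA bound to ribosomes carrying an HA tag on Rpl22 (RiboTag) was pulled down and sequenced in 107 libraries to enrich the RNA of tagged cells. All neural progenitor cells (NPC) came from a single female mouse embryonic stem cell (ESC) line, and cultured conditions are therefore repeats of 1 genetic source. In culture, EGF and FGF were lowered from 100 to 1 ng/ml for 4 days (SPONT, n = 4), and CNTF or IGF-1 at 100 ng/ml, FBS at 1, 5, 10 or 20%, or CNTF with 5% FBS was added to that medium (n = 4 each). Undifferentiated NPC were profiled at passages 5, 15 and 30 of the first derivation (n = 4 each) and in 2 further derivations at passage 15 (D2 with n = 6 and D3 with n = 4, here NPC P15 D2 and NPC P15 D3). They were also profiled after passing through a pipette in the diblock copolypeptide hydrogel used to carry grafts (NPC DCH, n = 5). The same was done after 4 h in the hydrogel (n = 5) or in medium instead (n = 5). For grafts, NPC in hydrogel were placed into the cord of adult C57BL/6 mice of both sexes that received no immunosuppression, either uninjured or 2 days after a severe crush at the thoracic level (SCI) or a double crush that makes a larger lesion (dSCI). Grafts were recovered at 14 days (n = 5 for each) or, in SCI only, at 5 days (n = 5), and the study's texts differ on whether these days run from injury or from grafting. Host astrocytes came from uninjured mice (healthy, n = 9) and from mice 14 days after SCI (n = 5) that express RiboTag under a Gfap-Cre driver, so that any cell with past Cre activity is included. No injection or hydrogel is described for these host samples, so between grafts and host, cell source cannot be told apart from injection and hydrogel.

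Gene counts summed to 30473157–147764968 in the 96 paired libraries and to 12286240–18085106 in the 11 single-read libraries, namely the 5-day grafts and NPC P15 D2. Astrocyte marker RNA (7 genes summed, including Gfap, Aqp4 and Slc1a3) came to 1283–1372 CPM in NPC DCH, 8071–11953 CPM in SPONT, 11603–18569.9 CPM in uninjured grafts, 10941–23261 CPM in SCI grafts and 35024–42514 CPM in healthy host astrocytes. The differentiated cultures are mixed, and oligodendrocyte marker RNA came to 1906–2162 CPM with IGF-1. In 20% FBS, astrocyte marker RNA came to 4379–5008 CPM, below SPONT, and the 7 fibroblast and mural markers summed to 454–547 CPM. Of that sum Col1a1 averaged 321 CPM, whereas Col1a2, Lum and Rgs5 averaged at most 1.62 CPM, so it does not stand for the whole list. The paper describes high serum as evoking myofibroblast-like phenotypes in the NPC. Marker RNA of other cells was also present in the tissue samples. The 5 oligodendrocyte markers summed to 10917–25701 CPM in uninjured grafts, 5192–11264 CPM in healthy and 21452–36410.1 CPM in injured host samples, and the 12 macrophage and microglia markers reached 16090 CPM in the 5-day graft replicate 4 and 11479 CPM in the dSCI graft replicate 4. CPM scale the gene counts of each library to the same total, and FPKM are CPM per kilobase of exon, used here wherever levels of different genes are compared.

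Astrocytes respond to damage and inflammation with a change of state called reactivity, in which intermediate filament genes rise along with a set of secreted proteins. Several of the genes followed here are acute-phase or innate defence genes that liver cells also induce. CNTF signals through a receptor complex that includes gp130 (Il6st) and activates the transcription factor STAT3, while serum carries many growth factors, lipids and cytokines at the same time. In cord lesions, astrocytes next to the damaged tissue form a border in which many of these genes are high.

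The genes differ in the letters before their start sites, which are shown because STAT3, NF-kB and C/EBP factors are the regulators most often studied for them. Sequences come from RefSeq on GRCm38.p6, in the direction of the gene, and the motifs were searched on both strands in the 250 bases before each of 32851 start sites. TTCNNNGAA (STAT) was present in 7.02% of all those windows, the NF-kB motif (GGG, any 2 bases, TTTCC) in 1.41%, its narrower form with ATTTCC after GGGN in 0.280%, and TTGCNNAA (C/EBP) in 9.56%. Counted by gene, with a match in any of its windows, these were 2197, 447, 91 and 2930 of 27025 genes. Of the 10 genes, 2 held the STAT letters (Steap4 and Tgm1), 2 the NF-kB letters (Serpina3n and Steap4), none the narrower form, and 4 the C/EBP letters (Lcn2, Cp, Steap4 and Saa2). Chil1, Timp1, Myoc and Cd44 held none of them in these windows. The windows of Lcn2, Saa2 and Steap4 are given whole, as the genes with the highest and the lowest level per exon length in SCI grafts and the gene with all 3 kinds of match. Capitals mark the matches:
Lcn2, chr2:32387740-32387989, minus strand: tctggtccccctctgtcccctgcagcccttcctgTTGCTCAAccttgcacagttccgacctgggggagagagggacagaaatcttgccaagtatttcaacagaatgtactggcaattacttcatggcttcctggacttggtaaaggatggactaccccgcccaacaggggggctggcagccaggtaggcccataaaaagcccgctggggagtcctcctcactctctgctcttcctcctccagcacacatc
Saa2, chr7:46751583-46751832, plus strand: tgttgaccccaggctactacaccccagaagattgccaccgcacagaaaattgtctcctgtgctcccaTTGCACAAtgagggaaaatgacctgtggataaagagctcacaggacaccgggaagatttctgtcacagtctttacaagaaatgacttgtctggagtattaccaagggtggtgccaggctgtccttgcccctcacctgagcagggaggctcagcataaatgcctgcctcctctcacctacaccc
Steap4, chr5:7960222-7960471, plus strand: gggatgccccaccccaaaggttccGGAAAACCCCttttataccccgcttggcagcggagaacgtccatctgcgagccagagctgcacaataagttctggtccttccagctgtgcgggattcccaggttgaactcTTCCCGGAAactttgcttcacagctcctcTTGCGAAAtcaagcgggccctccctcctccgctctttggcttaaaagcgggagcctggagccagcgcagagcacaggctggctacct

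For Tgm1 and Serpina3n the window overlaps another annotated transcript of the gene, and only 30 bases around each match are printed. Tgm1 held the STAT letters at 2 places before its first RefSeq start:
Tgm1 upstream site, chr14:55713646-55713675, minus strand: atgacctcagTTCCTAGAAaggagaaagtg
Tgm1 site nearer the start, chr14:55713537-55713566, minus strand: tcttccccttTTCCCAGAAactcggccccg
Serpina3n, chr12:104406527-104406556, plus strand: aacagaggtgGGGCTTTTCCcatcaggaag

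All these matches are descriptions of the letters and say nothing of which factor binds. In Steap4 the STAT and C/EBP letters lie close together, 116–108 and 87–80 bases before the start.

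Across the 23 conditions, 8 of the 10 genes had their highest mean level in SCI grafts at 14 days, and for 7 of those 8, all but Tgm1, the libraries overlapped those of the next highest condition. The exceptions were Cp, which was highest in 20% FBS at 2912 ± 122 CPM (mean ± SD), and Serpina3n, which was highest in host astrocytes after SCI at 2544 ± 605 CPM. Among the 8 differentiated cultures the highest condition differed between genes: CNTF for Lcn2, Serpina3n and Timp1, 1% FBS for Chil1 and Tgm1, 10% FBS for Saa2 and Myoc, 20% FBS for Cp, and CNTF with 5% FBS for Steap4 and Cd44. The mean in SCI grafts was 95.4 times the best culture mean for Lcn2, 71.1 times for Chil1 and 51.3 times for Tgm1. For Steap4 the same ratio was 1.07, for Cd44 1.33 and for Cp 0.413. Per exon length, the order in SCI grafts was Lcn2 at 2191 ± 782 FPKM, Chil1 at 726, Serpina3n at 686, Timp1 at 275, Myoc at 183, Cp at 126, Tgm1 at 78.2, Cd44 at 38.9, Steap4 at 38.0 and Saa2 at 12.3 FPKM.

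**Figure D1:**
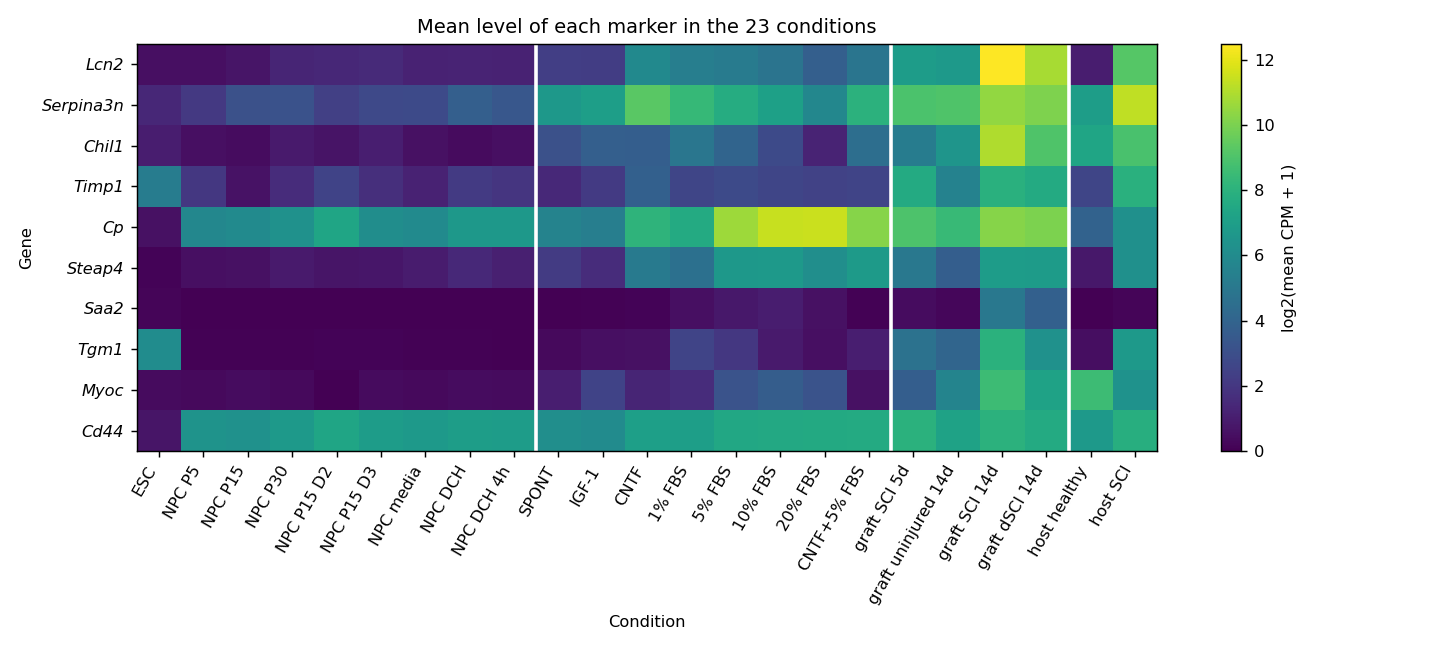
Colour gives log2(mean CPM + 1) for each of the 10 genes (rows) in the 23 conditions (columns), with white lines between stem and progenitor cells, differentiated cultures, grafts and host astrocytes. Colours are not adjusted for exon length, so they compare conditions within a row rather than genes. On this scale Lcn2 in SCI grafts (5748 CPM) is the brightest field, Cp brightens with serum dose, and Saa2 stays dark outside injured grafts.

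Before any cue, the genes ranged in NPC from near 0 to the levels of Cd44 and Cp, with Serpina3n in between. Cd44, a receptor for the matrix polymer hyaluronan, was at 74.5, 85.9, 81.3 and 76.5 CPM in the 4 NPC P15 libraries, and Cp, a copper-carrying ferroxidase, at 64.0, 71.2, 59.9 and 52.4 CPM. Both were near absent from ESC, with ranges of 0.268–1.09 CPM and 0.436–0.485 CPM. Saa2 had no count in 36 of the 37 NPC libraries, and Tgm1 did not exceed 0.164 CPM in any of them. After growth factor withdrawal (SPONT against NPC P15), Lcn2, Serpina3n, Chil1 and Steap4 were higher, 4 of the 8 genes tested, where 57.2% of all genes tested were called in either direction and 29.8% as higher. The labels give no derivation or passage for SPONT, so withdrawal cannot be told apart from a difference in these. A gene was called at an adjusted p below 0.01 in edgeR's quasi-likelihood test after Benjamini-Hochberg adjustment over all genes tested. Chil1, a chitinase-like secreted glycoprotein, went from 0.213, 0.542, 0.465 and 0.135 CPM to 8.77, 11.2, 5.59 and 4.73 CPM (log2FC 4.58 ± 0.48 SE, adjusted p = 7.5e-06). Serpina3n, an inhibitor of serine proteases such as granzyme B, went from 6.51, 7.86, 9.00 and 7.08 CPM to 132, 127, 78.5 and 66.7 CPM (log2FC 3.86 ± 0.24 SE, adjusted p = 1.3e-07). In neither gene did the groups overlap. Other genes depended on which NPC were the reference. Timp1 did not pass against NPC P15 (1.84 ± 0.71 SE), but against the single-read libraries of NPC P15 D2 it was lower in SPONT (-1.39, adjusted p = 1.8e-05). Cp (-1.74 against D2 and -0.50 against D3, adjusted p = 1.5e-09 and 0.0067) and Cd44 (-1.12 and -0.69, adjusted p = 2.4e-08 and 0.00013) were called lower in SPONT against both, and Myoc higher against D3 (1.95, adjusted p = 0.0018), while none of the 3 passed against NPC P15.

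CNTF added to the withdrawal medium raised 6 of 9 genes tested, against 19.9% of all genes called in either direction (10.8% higher). The median log2FC was 2.60 over the 9 genes and -0.01 over all genes tested. Lcn2, or lipocalin 2, an iron-siderophore binding protein released in innate defence, was at 4.65, 6.47, 2.68 and 2.39 CPM in SPONT and at 61.5, 58.9, 62.2 and 58.5 CPM with CNTF. The lowest CNTF library was 9.04 times the highest SPONT library (log2FC 3.91 ± 0.29 SE, adjusted p = 3.9e-06). Timp1, an inhibitor of matrix metalloproteinases, was at 1.35, 2.36, 1.62 and 1.45 CPM in SPONT and at 13.3, 11.6, 14.7 and 12.5 CPM with CNTF (log2FC 2.96 ± 0.19 SE, adjusted p = 1.5e-06), again without overlap. Steap4, a metalloreductase of iron and copper, went from 5.56, 2.88, 2.82 and 2.53 CPM to 32.8, 35.2, 34.7 and 36.4 CPM (log2FC 3.35 ± 0.23 SE, adjusted p = 2.4e-06). Serpina3n rose to 607, 629, 625 and 641 CPM (2.64 ± 0.21 SE), its highest level in culture, and Cp from 47.9, 33.4, 52.8 and 53.2 CPM to 274, 278, 282 and 285 CPM (2.60 ± 0.13 SE).

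Cd44 moved less with CNTF, from 86.7, 57.8, 65.0 and 74.8 CPM to 128, 132, 126 and 139.7 CPM (log2FC 0.91 ± 0.11 SE, adjusted p = 0.0001). Chil1 (0.70, adjusted p = 0.05; 0.97 and 0.00076 without SPONT replicate 2), Tgm1, a transglutaminase that cross-links proteins (0.94, adjusted p = 0.16), and Myoc, a secreted glycoprotein best known from the eye (0.46, adjusted p = 0.42), did not pass the test. Saa2, an acute-phase serum amyloid A, had counts of 8, 6, 10 and 2 with CNTF and 0, 0, 6 and 0 in SPONT and was too low to test. Saa2 shares nearly all its sequence with Saa1, and Serpina3n lies in a cluster of close paralogs, so some reads of these genes cannot be assigned to 1 copy. Astrocyte marker RNA came to 8071–11953 CPM in SPONT and 22466–23524 CPM with CNTF over the 7 markers, of which 2 rose and 2 fell, and its part in these results was not tested. In bulk profiles, fewer cells of a type and less RNA per cell cannot be told apart.

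IGF-1 changed few of the genes: 2 of 9 rose, against 6.55% of all genes called (2.8% higher). Myoc was at 1.65, 1.48, 0.737 and 0.373 CPM in SPONT and at 4.95, 4.80, 4.36 and 5.04 CPM with IGF-1, with no overlap (log2FC 2.22 ± 0.36 SE, adjusted p = 0.0055). Timp1 was at 3.45, 3.32, 3.56 and 2.86 CPM (log2FC 1.01 ± 0.20 SE, adjusted p = 0.0087). The call of Myoc held in 2 of the 8 fits that each left out 1 library, and that of Timp1 in 1 of the 8 fits. Lcn2 with IGF-1 stayed within the SPONT range at 3.70, 3.61, 3.57 and 4.45 CPM (-0.03, adjusted p = 0.95). The 5 oligodendrocyte markers, none of which was called, summed to 1906–2162 CPM with IGF-1 and 240.4–1224 CPM in SPONT, and their part in the Myoc and Timp1 values was not tested.

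**Figure D2:**
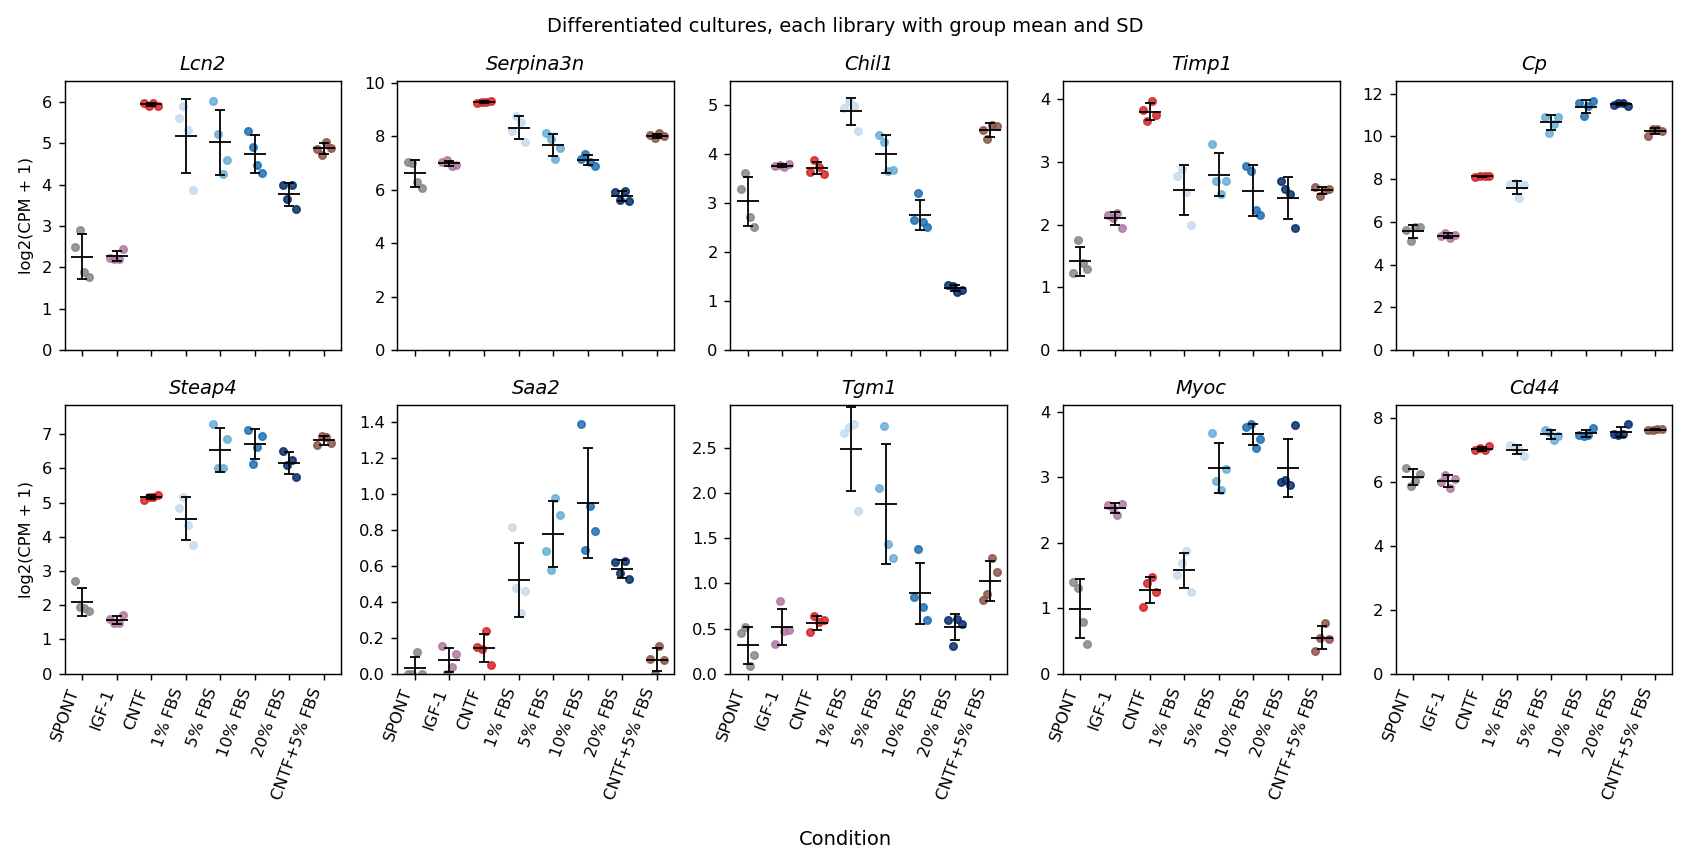
Each panel shows 1 gene in the 8 differentiated cultures, with log2(CPM + 1) on the vertical axis, 1 point per library (n = 4 per condition) and the group mean with SD in black on that scale; the vertical ranges differ between panels. Cp climbs from SPONT to 20% FBS, Chil1 and Serpina3n fall from 1% FBS to 20% FBS, and every library with CNTF and 5% FBS lies below 1 CPM for Myoc. Saa2 lies below 1 CPM in every library shown except 10% FBS replicate 1 (1.62 CPM).

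Serum at its lowest dose raised nearly all of the genes. With 1% FBS, 9 of the 10 rose, while 8.78% of all genes tested were called in either direction and 5.63% were higher. The median log2FC was 2.01 over the genes and -0.00 over all genes tested. Tgm1 was at 0.365, 0.434, 0.0590 and 0.152 CPM in SPONT and at 5.36, 5.63, 5.78 and 2.49 CPM in 1% FBS (log2FC 4.27 ± 0.48 SE, adjusted p = 0.0002). Chil1 was at 29.5, 32.9, 30.7 and 21.3 CPM, above all SPONT libraries (log2FC 1.93 ± 0.26 SE, adjusted p = 0.00068). Lcn2 was at 47.8, 58.2, 39.2 and 13.6 CPM, and the lowest of these values, in replicate 4, still exceeded the highest SPONT value of 6.47 CPM (log2FC 3.31 ± 0.45 SE, adjusted p = 0.00069). Replicate 4 was also the lowest of its group for Serpina3n, Chil1, Timp1, Steap4, Tgm1, Myoc and Cd44. Myoc was at 1.85, 2.24, 2.67 and 1.38 CPM and did not pass the test (0.96, adjusted p = 0.13). The calls of Timp1 and Saa2 at this dose held in 4 of the 8 fits and 2 of the 8 fits that each left out 1 library, and those of the other 7 genes in all. The Saa2 value compares 0.764, 0.390, 0.263 and 0.376 CPM with a SPONT group of 6 counts in all, all in replicate 3. Its fitted size depends on that library: the log2FC was 4.28 with it and 8.06 without it. In 5, 10 and 20% FBS it was 4.97, 5.39 and 4.38, and 8.72, 9.13 and 8.12 without it.

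With more serum the genes parted ways. Of the genes whose products handle iron and copper, Cp had a higher mean at each higher dose, whereas Steap4 had its highest mean at 10% and a lower one at 20% (71.5 CPM) than at 5% (99.1 CPM). Cp was at 215, 222, 138 and 211 CPM in 1% FBS, 1923, 1155, 1541 and 1934 CPM in 5%, 3036, 1964, 2717 and 3217 CPM in 10% and 2855, 3004, 3022 and 2767 CPM in 20% FBS. Neighbouring doses did not overlap up to 10%, whereas the 10% and 20% libraries did. Against SPONT, Cp rose by 2.08 ± 0.17 SE in 1% FBS and 5.92 ± 0.15 SE in 20% FBS on the log2 scale (adjusted p = 1.5e-10), the largest change of the 10 genes in any comparison of a culture with SPONT. That rank depends on SPONT replicate 3, without which Saa2 changed by 9.13 in 10% FBS. Steap4 was at 28.0, 35.0, 19.4 and 12.4 CPM in 1% FBS, 155, 63.3, 63.0 and 115 in 5%, 139, 68.4, 98.7 and 122 in 10% and 90.9, 67.7, 75.0 and 52.5 in 20% FBS, with overlap among the 3 higher doses. Cp overlaps Hps3 on the genome, and reads from that stretch cannot be assigned without strand.

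Chil1, Serpina3n, Tgm1 and Lcn2 ran the other way among the serum doses. Chil1 fell from 28.6 CPM in 1% FBS to 15.4, 5.88 and 1.40 CPM in 5, 10 and 20% FBS, and the 4 libraries of 20% FBS (1.50, 1.49, 1.29 and 1.34 CPM) lay below every SPONT library (log2FC -2.48 ± 0.28 SE, adjusted p = 1.4e-05). Serpina3n fell from 329 to 212, 137 and 53.8 CPM, and its 20% FBS libraries (59.0, 48.0, 60.7 and 47.5 CPM) also lay below SPONT (log2FC -0.96 ± 0.22 SE, adjusted p = 0.0023). That call was lost without 20% FBS replicate 4 (-0.87, adjusted p = 0.011). Tgm1 went from 4.82 to 0.436 CPM and Lcn2 from 39.7 to 12.8 CPM, and Lcn2 in 20% FBS (15.0, 11.6, 14.8 and 9.59 CPM) was still above SPONT (1.61 ± 0.31 SE).

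Directly compared, 20% FBS was higher than 1% FBS for Cp, Steap4, Myoc and Cd44 and lower for Lcn2, Serpina3n, Chil1 and Tgm1, 4 and 4 of 10, where 60% of all genes tested were called, 30.4% higher and 29.6% lower. The difference was -4.38 ± 0.16 SE for Chil1, -3.51 ± 0.32 SE for Tgm1, -2.65 ± 0.19 SE for Serpina3n and -1.67 ± 0.34 SE for Lcn2 on the log2 scale. It was 3.86 ± 0.13 SE for Cp and 1.97 ± 0.27 SE for Myoc. Timp1 (-0.20, adjusted p = 0.5) and Saa2 (0.12, adjusted p = 0.76) did not pass the test. Astrocyte marker RNA fell over the same range of doses, from 18489–23915 CPM in 1% FBS to 4379–5008 CPM in 20% FBS over the 7 markers, and the sum of 7 fibroblast and mural markers rose from 22.7–124 to 454–547 CPM. Within that sum the means of Col1a1 (29.7 to 321 CPM), Dcn (1.53 to 65.4 CPM) and Pdgfrb (5.35 to 83.1 CPM) rose. Col3a1 did not (25.0 to 22.8 CPM), and Col1a2, Lum and Rgs5 had means of at most 1.62 CPM in 20% FBS. The part of either shift in the values above was not tested.

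Against SPONT, 9 of 10 genes rose in 5% FBS, 7 in 10% FBS and 7 in 20% FBS, where 2 fell (Chil1 and Serpina3n). The shares of all genes called in either direction were 34.1%, 45% and 55.5%, and those called higher 19.2%, 24.2% and 27.6%, with 27.9% lower in 20% FBS. Libraries of 5% FBS and SPONT with the same replicate number deviated together weakly (r 0.115–0.319), though no label states that they are pairs. With the number as a block Chil1 passed too (1.07, adjusted p = 0.0005, against 1.03 and 0.015 without it). The call of Serpina3n in 5% FBS (1.07 ± 0.27 SE) held in 3 of the 8 fits that each left out 1 library. Myoc answered to serum from 5% on, at 11.9, 6.71, 6.00 and 7.79 CPM in 5%, 12.7, 13.0, 9.96 and 11.0 in 10% and 6.58, 6.80, 6.39 and 12.9 in 20% FBS (3.47 ± 0.39 SE in 10% FBS). Saa2 reached 1.62, 0.613, 0.912 and 0.735 CPM in 10% FBS, its highest level in culture, which is below 2 CPM in every library. Timp1 stayed between 4.47 and 6.10 CPM on average at all 4 doses, each above SPONT.

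Adding CNTF to 5% FBS lowered 2 of the 10 genes relative to 5% FBS alone, Myoc and Saa2, while 23.3% of all genes tested were called in either direction and 12% as lower. The count is thus near the share over all genes. By edgeR 0 genes were called higher, as by DESeq2, and 1 was higher at an unadjusted p below 0.05. DESeq2 called 4 genes lower, adding Cp and Tgm1, which also passed without 5% FBS replicate 2 and without 5% FBS replicate 4 respectively. Myoc was at 11.9, 6.71, 6.00 and 7.79 CPM in 5% FBS and at 0.276, 0.455, 0.718 and 0.441 CPM with CNTF as well (log2FC -4.17 ± 0.30 SE, adjusted p = 2e-05), below the 1.03, 1.60, 1.79 and 1.37 CPM of CNTF alone. Saa2 was at 0.607, 0.489, 0.972 and 0.842 CPM in 5% FBS and at 0.0582, 0, 0.113 and 0.0535 CPM in the combination, the latter from counts of 4, 0, 8 and 4 (log2FC -3.76 ± 0.53 SE, adjusted p = 0.0006). In neither gene did the conditions overlap. Lcn2 in the combination was at 27.8, 25.3, 31.8 and 28.7 CPM, inside the range of 5% FBS (18.1–63.9 CPM) and below all CNTF libraries.

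Relative to CNTF alone, 5 of 9 genes tested were higher in the combination and 4 lower, where 72.8% of all genes were called, 36.1% as higher and 36.8% as lower. Lcn2 (-1.20 ± 0.06 SE), Serpina3n (-1.37 ± 0.04 SE), Timp1 (-1.54 ± 0.09 SE) and Myoc (-1.72 ± 0.27 SE) fell. Cp (2.00 ± 0.06 SE), Steap4 (1.58 ± 0.06 SE), Tgm1 (1.02 ± 0.25 SE), Chil1 (0.71 ± 0.08 SE) and Cd44 (0.48 ± 0.04 SE) rose. The call of Tgm1 was lost in 1 fit over all culture groups (1.04, adjusted p = 0.049). In a fit of the 4 conditions together, the effect of CNTF with serum differed from that without it for 9 of the 10 genes, each with a lower value in the combination than the product of the separate folds. Among the 9 is Saa2, which passed the count filter of this fit through 5% FBS, so its call does not compare measured CNTF effects. Over all genes tested, 22.9% had such an interaction and 12.6% one in this direction.

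The interaction was log2FC -4.32 ± 0.47 SE, adjusted p = 3.8e-06 for Lcn2, whose mean of 28.4 CPM in the combination compares with 526 CPM had the separate folds multiplied. For Timp1 it was log2FC -3.38 ± 0.28 SE, adjusted p = 1.5e-07, with 4.85 against 46.8 CPM. For Cp it was -3.12 ± 0.21 SE, with 1211 against 9782 CPM. Steap4 (-3.26 ± 0.37 SE), Myoc (-4.64 ± 0.54 SE), Serpina3n (-2.43 ± 0.29 SE), Saa2 (-5.96 ± 1.14 SE), Tgm1 (-2.54 ± 0.67 SE) and Cd44 (-0.86 ± 0.14 SE) had the same sign. Saa2 passed the count filter of this fit through 5% FBS and was too low to test for CNTF against SPONT, so its value rests on groups near 0. Without SPONT replicate 3 the value for Saa2 was -9.68. The interaction of Tgm1 held in 5 of the 16 fits that each left out 1 library. Chil1 did not pass the test (-0.30, adjusted p = 0.48), and its combined level of 21.6, 18.7, 23.1 and 22.97 CPM was near the product of its folds at 24.8 CPM. Fibroblast and mural marker RNA was 150.5–539 CPM in 5% FBS and 21.1–27.5 CPM in the combination, and its part was not tested.

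**Figure D3:**
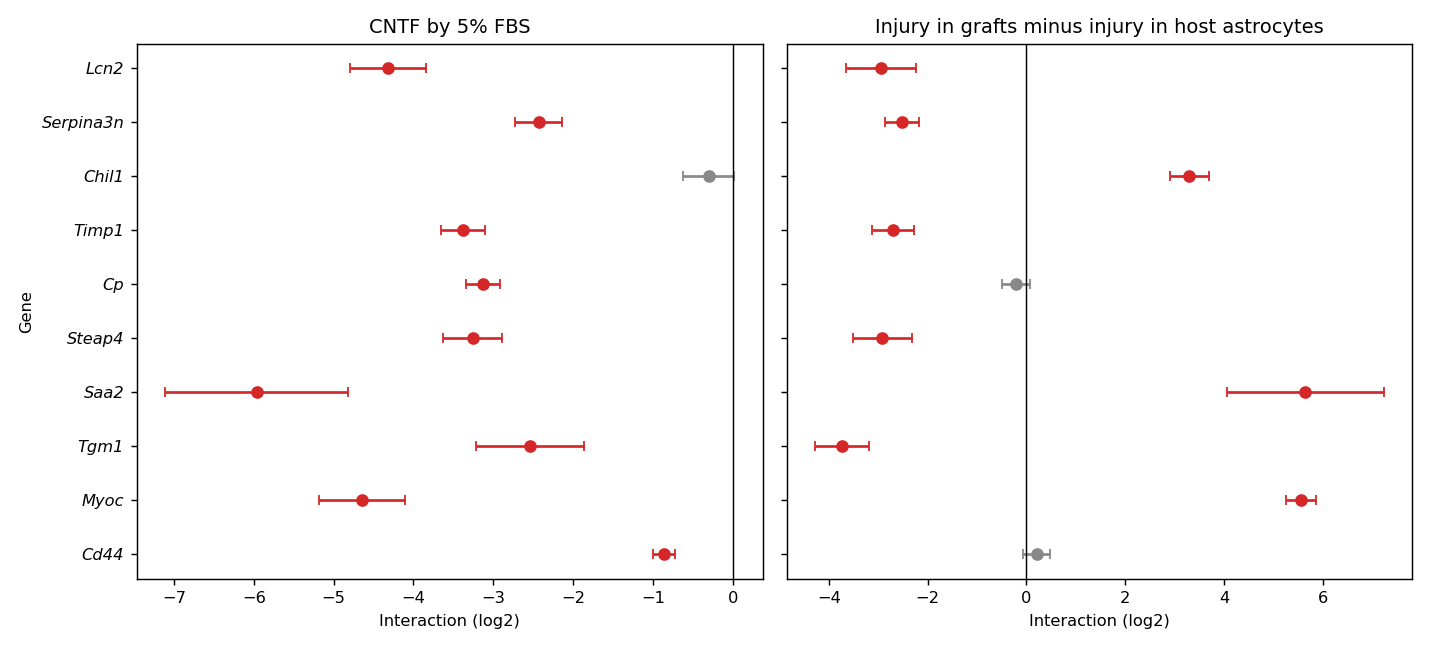
Points give the log2 interaction for each gene and bars 1 SE, red where the adjusted p was below 0.01 and grey otherwise. On the left, values below 0 mean that CNTF with 5% FBS gave less than the product of the separate effects, as for 9 genes. On the right, values above 0 mean a larger rise on SCI in grafts than in host astrocytes, as for Chil1, Saa2 and Myoc. Saa2 was too low to test for CNTF against SPONT and in the host alone. The horizontal ranges differ between the panels.

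Grafts in the uninjured cord at 14 days exceeded ungrafted NPC that had passed through a pipette in the hydrogel (NPC DCH). This held for 8 of 9 genes tested, where 53.7% of all genes were called and 28.4% as higher. The largest changes were in Chil1, which went from 0.191, 0.127, 0.125, 0.422 and 0.622 CPM to 183, 61.4, 43.7, 91.4 and 69.6 CPM (log2FC 8.29 ± 0.61 SE, adjusted p = 2e-07), and in Tgm1, which went from 0.0545, 0.0316, 0.0906, 0.0422 and 0.0319 CPM (counts of 4, 2, 8, 3 and 2) to 33.9, 14.3, 4.49, 18.2 and 9.39 CPM (log2FC 8.27 ± 0.71 SE, adjusted p = 7.5e-07). Myoc went from 0.436, 0.158, 0.442, 0.253 and 0.383 CPM to 49.2, 43.4, 54.4, 45.6 and 48.5 CPM (log2FC 7.18 ± 0.31 SE, adjusted p = 4.2e-09), with the smallest spread relative to its mean of the 10 genes in these grafts. Lcn2 went from 1.13, 1.96, 2.18, 0.281 and 1.36 CPM to 207, 104, 93.9, 75.3 and 38.7 CPM (log2FC 6.24 ± 0.59 SE, adjusted p = 1.7e-06). In none of the 4 did the groups overlap. Serpina3n (5.39 ± 0.24 SE), Timp1 (3.78 ± 0.44 SE), Steap4 (2.83 ± 0.51 SE) and Cp (1.81 ± 0.20 SE) also rose. Cd44 (0.28, adjusted p = 0.34) did not pass the test, and Saa2 had counts of 0, 47, 2, 0 and 17 in uninjured grafts and 0 in NPC DCH. All 12 macrophage and microglia markers, all 5 neuron and all 5 oligodendrocyte markers were called higher in the same comparison, from sums of 1.64–2.81, 1.55–6.13 and 9.64–18.7 CPM to 223–1583, 1466–7478 and 10917–25701 CPM, and their part was not tested.

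Grafts in SCI lesions exceeded grafts in uninjured cord for 9 of the 10 genes, in a comparison in which 4.64% of all genes were called and 2.09% as higher. The median log2FC was 3.40 over the 10 genes and -0.05 over all genes tested. Lcn2 was at 207, 104, 93.9, 75.3 and 38.7 CPM in uninjured grafts and at 6449, 6698, 8237, 4258 and 3099 CPM in SCI grafts (log2FC 6.05 ± 0.45 SE, adjusted p = 1.1e-05). The lowest SCI library was 15.0 times the highest uninjured library, and the mean of 5748 CPM corresponds to 2191 FPKM. Chil1 was at 2035, 2626, 2562, 2017 and 934 CPM in SCI grafts against 43.7–183 CPM (log2FC 4.74 ± 0.41 SE, adjusted p = 3.4e-05). Tgm1 was at 295, 226, 293, 268 and 154 CPM against 4.49–33.9 CPM (log2FC 4.19 ± 0.44 SE, adjusted p = 0.00015). Saa2, which was below 1 CPM in every uninjured graft, was at 24.0, 14.3, 35.5, 67.6 and 13.8 CPM in SCI grafts (log2FC 7.74 ± 1.05 SE, adjusted p = 0.00074). In none of these genes did the groups overlap, and the calls of all 9 held whichever library was left out. Saa2 passed the count filter through the SCI grafts. Its fitted size depends on an uninjured group with counts of 0, 47, 2, 0 and 17, and its lowest SCI library was 22.98 times the highest uninjured one. Without uninjured replicate 2 the log2FC was 9.17.

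Steap4 was at 5.35, 13.2, 10.5, 21.7 and 9.66 CPM in uninjured and 157, 114, 137, 118 and 73.2 CPM in SCI grafts (log2FC 3.57 ± 0.32 SE, adjusted p = 3.4e-05). Myoc was at 497, 455, 332, 363 and 248 CPM in SCI grafts (log2FC 3.23 ± 0.18 SE, adjusted p = 3.3e-07). Timp1 (189.9, 149, 317, 416 and 151 CPM, 2.72 ± 0.32 SE), Cp (1361, 1239, 1465, 1133 and 812 CPM, 2.07 ± 0.24 SE) and Serpina3n (1977, 1582, 1796, 776 and 954 CPM, 1.70 ± 0.25 SE) also rose without overlap. Cd44 was at 261, 145, 129, 112 and 78.8 CPM in uninjured and 337, 259, 265, 276 and 181 CPM in SCI grafts, with overlap through uninjured replicate 1, and did not pass the test (1.12, adjusted p = 0.013). Without that library it passed (1.45, adjusted p = 0.0014), as it did without SCI replicate 5 (1.18, adjusted p = 0.0085). Timp1 lies inside an intron of Syn1, a neuronal gene on the other strand.

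Lcn2 is also a granule protein of neutrophils. The 8 neutrophil markers summed to 4.20–16.5 CPM in SCI grafts and 4.60–41.2 CPM in uninjured grafts, 0 of the 6 tested were called by edgeR and 0 had an unadjusted p below 0.05. In SCI grafts 1 of the 8, Elane, was at 0 in every library and the other 7 were detected, and the part of neutrophil RNA in the Lcn2 values was not tested. Of the 12 macrophage and microglia markers 0 were called and 3 had an unadjusted p below 0.05, with sums of 556–1914 CPM in SCI and 223–1583 CPM in uninjured grafts. Neuron marker RNA fell, with 4 of 5 markers called, from 1466–7478 to 237–539 CPM. Oligodendrocyte marker RNA was lower without overlap, at 10917–25701 CPM in uninjured and 3822–9601 CPM in SCI grafts, with 0 of 5 markers called by edgeR and 5 at an unadjusted p below 0.05. Astrocyte marker RNA was 11603–18569.9 and 10941–23261 CPM, with 2 of 7 markers called higher. The part of these shifts was not tested.

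**Figure D4:**
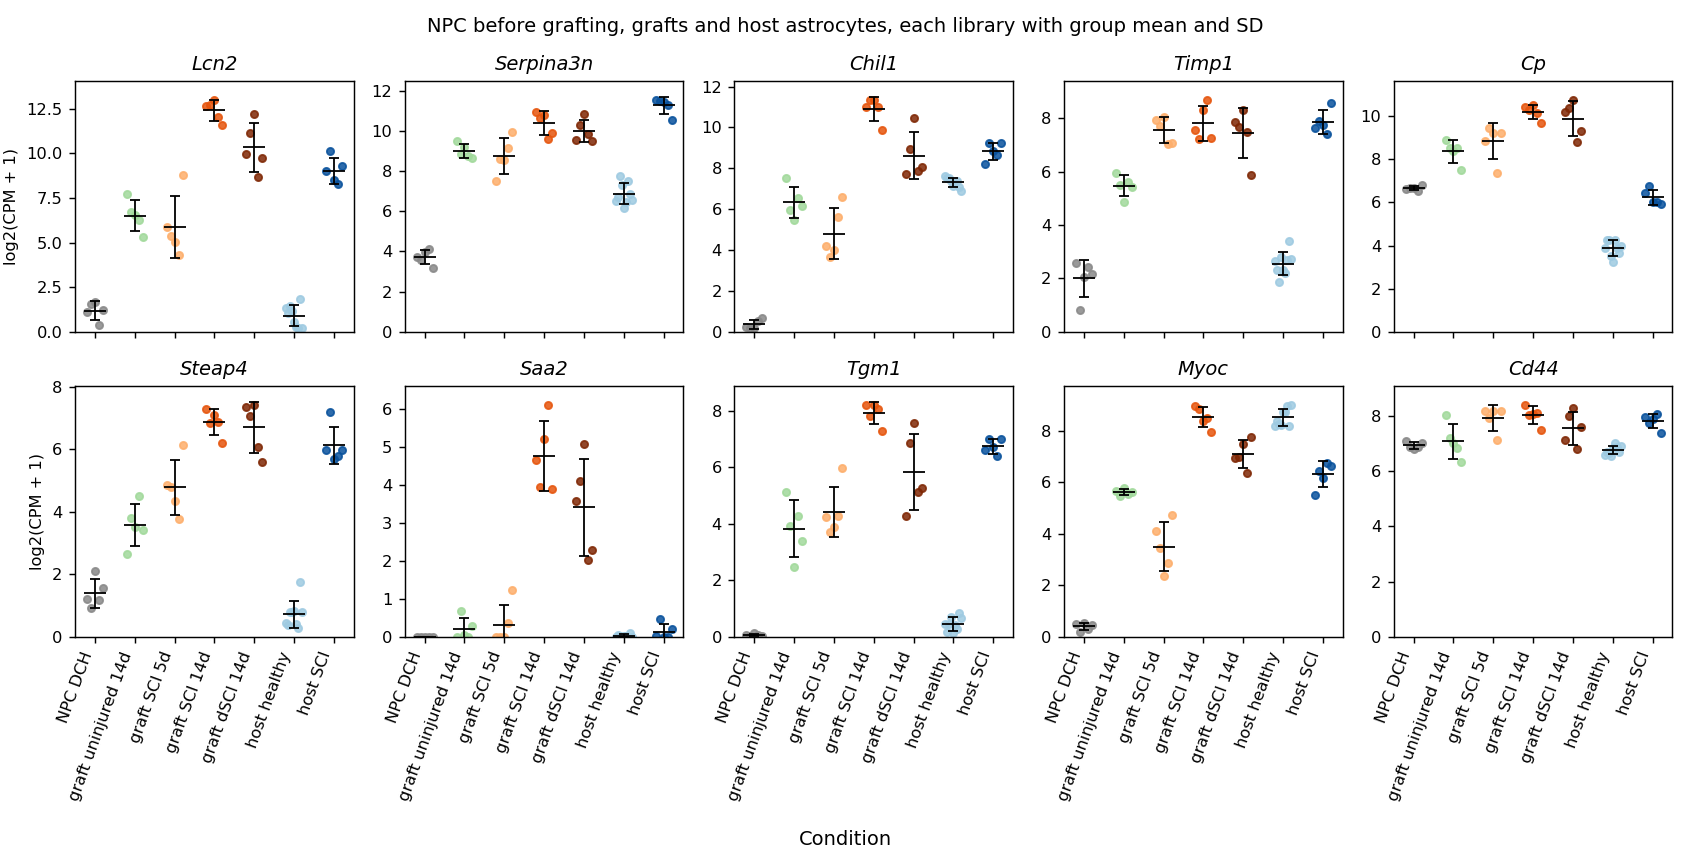
Each panel shows 1 gene in NPC before grafting, in 4 kinds of graft and in healthy and injured host astrocytes, with log2(CPM + 1) on the vertical axis, 1 point per library (n = 5, or 9 for healthy host) and the group mean with SD in black on that scale; the vertical ranges differ between panels. SCI grafts at 14 days lie above uninjured grafts for all genes but Cd44, Saa2 is near 0 outside the 14-day SCI and dSCI grafts, and Myoc is the gene that is lower in injured than in healthy host astrocytes.

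Grafts in the larger double-crush lesion spread more widely. Against uninjured grafts, 8 of the 10 genes rose (4.19% of all genes called, 2.55% higher). Lcn2 was at 996, 2242, 4643, 405 and 837 CPM in dSCI grafts (log2FC 4.31 ± 0.62 SE, adjusted p = 0.0016), Steap4 at 164, 132, 171, 66.6 and 47.3 CPM (log2FC 3.44 ± 0.38 SE, adjusted p = 0.00049) and Saa2 at 10.9, 16.1, 32.7, 3.03 and 3.88 CPM (log2FC 6.36 ± 1.34 SE, adjusted p = 0.0092). Each of the 3 was above the uninjured range in every library. The count of 8 fell to 4 without any 1 of uninjured replicates 2 or 4 or dSCI replicates 2 or 3 and to 5 without uninjured replicates 3 or 5. In those fits Lcn2, Timp1 and Steap4 kept their calls whichever library was left out, whereas Serpina3n, Chil1, Cp, Saa2 or Myoc lost theirs in 1 or more of them. Tgm1 (2.45, adjusted p = 0.021) and Cd44 (0.73, adjusted p = 0.2) did not pass. The log2FC was smaller without dSCI replicate 3, at 3.70 for Lcn2, 2.03 for Chil1 and 5.77 for Saa2, and that of Saa2 was 7.78 without uninjured replicate 2. In the same comparison 2 of 7 fibroblast and mural and 3 of 12 macrophage and microglia markers were called higher. Their sums were 7214–27593 and 1116–11479 CPM in dSCI grafts against 1695–4436 and 223–1583 CPM in uninjured grafts. Neuron sums were 259.6–1531 and 1466–7478 CPM and oligodendrocyte sums 3460.0–11709 and 10917–25701 CPM in dSCI and uninjured grafts, with 0 of 5 markers called in either list by edgeR and 5 of 5 in each at an unadjusted p below 0.05. The part of these shifts was not tested.

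Between dSCI and SCI grafts no gene of the 10 was called at an adjusted p below 0.01, by edgeR, and 5 had an unadjusted p below 0.05, where 1.83% of all genes were called. The differences with the smallest adjusted p were -2.05 ± 0.45 SE for Chil1 (adjusted p = 0.016), -1.32 ± 0.31 SE for Myoc (adjusted p = 0.022), -1.77 ± 0.46 SE for Tgm1 (adjusted p = 0.029) and -1.76 ± 0.49 SE for Lcn2 (adjusted p = 0.04), all lower in dSCI. DESeq2 called the first 3 of these, and by edgeR Chil1 passed without SCI replicate 5 (-2.20) or dSCI replicate 3 (-2.73) and Myoc without dSCI replicate 5 (-1.74). Chil1 in dSCI grafts was at 209, 490.5, 1420.1, 235 and 269 CPM, with replicate 3 inside the SCI range, and Myoc at 120.4, 127, 177, 81.3 and 218 CPM, below every SCI graft. Of 7 fibroblast and mural markers 6 were called higher in dSCI, and they summed to 7214–27593 CPM in dSCI and 1046–3873 CPM in SCI grafts, and their part was not tested.

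At 5 days most of the genes were far lower than at 14 days: 7 of 10 were higher at 14 days, with 5.3% of all genes called (2.72% higher). The 5-day libraries are all single-read and the 14-day libraries all paired, so time and read type cannot be told apart. Lcn2 was at 57.5, 39.8, 31.1, 18.9 and 445 CPM at 5 days, where replicate 5 stood well above the others but below every 14-day SCI graft (log2FC 5.77 ± 0.89 SE, adjusted p = 0.0015). Without that library the log2FC was 7.43 for Lcn2, 8.88 for Saa2, 6.57 for Chil1 and 4.13 for Tgm1. Myoc was at 16.4, 9.84, 4.11, 6.27 and 25.4 CPM (log2FC 5.09 ± 0.46 SE, adjusted p = 0.00011) and Chil1 at 17.1, 11.6, 15.1, 48.2 and 94.5 CPM (log2FC 5.91 ± 0.64 SE, adjusted p = 0.00029). Saa2 had counts of 0, 0, 0, 4 and 19 at 5 days (6.75 ± 0.96 SE), and Tgm1 was at 18.1, 12.2, 13.7, 18.3 and 61.6 CPM (3.48 ± 0.43 SE). The calls of Cp (1.43 ± 0.31 SE) and Steap4 (2.09 ± 0.37 SE) held in 2 of the 10 fits and 5 of the 10 fits that each left out 1 library.

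Timp1 and Cd44 did not pass the test between the times, and their libraries overlapped. Timp1 was at 247, 208, 268, 129 and 135 CPM at 5 days and 189.9, 149, 317, 416 and 151 CPM at 14 days (0.49 ± 0.32 SE, adjusted p = 0.36), and Cd44 at 286, 244, 292, 139 and 289 CPM at 5 days (0.24 ± 0.20 SE, adjusted p = 0.49). Serpina3n was at 178, 391, 377, 561 and 996 CPM at 5 days and did not pass (1.65, adjusted p = 0.017), but passed without 5-day replicate 5 (2.04, adjusted p = 0.0043). Fibroblast and mural marker RNA was 5931–17892 CPM at 5 days, with 3 of 7 markers called lower at 14 days, and its part was not tested.

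In host astrocytes, SCI raised 8 of the 9 genes tested and lowered 1, where 41.1% of all genes were called, 22.2% as higher and 18.8% as lower. Lcn2 was at 0.160 to 2.63 (median 1.11) CPM in healthy and 511, 1098, 357, 307 and 621 CPM in injured cord (log2FC 8.94 ± 0.58 SE, adjusted p = 1.8e-09). Tgm1 was at 0.103 to 0.803 (median 0.365) CPM in healthy and 96.3, 128, 105, 82.8 and 126 CPM in injured cord (log2FC 7.89 ± 0.33 SE, adjusted p = 1.7e-11). Steap4 was at 0.222 to 2.37 (median 0.746) CPM in healthy and 62.8, 145, 51.2, 53.9 and 62.3 CPM in injured cord (log2FC 6.45 ± 0.46 SE, adjusted p = 4.8e-09). In each of the 3 the lowest injured library was at least 21.6 times the highest healthy library. Timp1 rose from 5.15 to 241 CPM (5.38 ± 0.28 SE), Serpina3n from 124 to 2544 CPM (4.18 ± 0.23 SE), Cp from 14.1 to 75.7 CPM (2.25 ± 0.17 SE), Chil1 from 159.7 to 471 CPM (1.40 ± 0.15 SE) and Cd44 from 108 to 227 CPM (0.88 ± 0.11 SE).

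Myoc was the exception. It was at 291 to 513 (median 335) CPM in healthy host astrocytes and at 44.5, 86.8, 71.6, 107 and 99.1 CPM after SCI, with every injured library below every healthy library (log2FC -2.38 ± 0.22 SE, adjusted p = 1.2e-07). Saa2 had at most 40 counts in any host library, in injured replicate 2, and was too low to test. Myoc overlaps Myocos on the genome, so its counts may include reads of that gene. Of other cell markers, 11 of 12 macrophage and microglia, 5 of 7 fibroblast and mural and all 5 oligodendrocyte markers were called higher in injured host samples, and 4 of 7 astrocyte markers lower. In healthy and injured samples the macrophage and microglia sums were 21.5–43.0 and 311–2249 CPM, and the fibroblast and mural sums 149–253 and 615–1410.4 CPM. The astrocyte sums were 35024–42514 and 26525–42085 CPM. The part of these shifts in the host values was not tested. Injured replicate 2 was the highest host library for Lcn2, Steap4, Tgm1 and Cp, and the calls of all 9 genes held without it.

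Set side by side after SCI, grafts exceeded host astrocytes for 6 of the 10 genes, where 14.6% of all genes were called and 6.79% as higher. Lcn2 was 3099–8237 CPM in SCI grafts and 307–1098 CPM in host astrocytes (log2FC 3.23 ± 0.37 SE, adjusted p = 7.2e-05). Cp was at 1361, 1239, 1465, 1133 and 812 CPM in grafts and 84.6, 106, 64.5, 63.0 and 60.7 CPM in host astrocytes (log2FC 3.93 ± 0.20 SE, adjusted p = 3.8e-07). Saa2 was at 13.8–67.6 CPM in grafts and at most 0.400 CPM in the host (log2FC 8.05 ± 1.04 SE, adjusted p = 0.00014). Myoc (2.13 ± 0.24 SE), Chil1 (2.02 ± 0.27 SE) and Tgm1 (1.12 ± 0.19 SE) were higher in grafts as well. The call of Tgm1 was lost in 1 fit over all groups of the experiment (1.09, adjusted p = 0.089), and the log2FC of Saa2 was 9.36 without host SCI replicate 2. Saa2 passed the count filter here through the grafts. No pair of ranges among these 6 genes overlapped. Timp1 (-0.05, adjusted p = 0.93), Cd44 (0.16, adjusted p = 0.46) and Steap4 (0.61, adjusted p = 0.13) did not pass the test, nor did Serpina3n, with a higher mean in the host (-0.91, adjusted p = 0.015). Serpina3n passed, lower in grafts, without host SCI replicate 5 (-1.04), and Steap4 passed, higher in grafts, without host SCI replicate 2 (0.95). All 5 oligodendrocyte markers were lower in grafts, with sums of 3822–9601 CPM against 21452–36410.1 CPM in host SCI, as were 5 of 7 astrocyte markers, with sums of 10941–23261 against 26525–42085 CPM, while 1 astrocyte marker and 2 of 7 fibroblast and mural markers were higher. The part of these differences was not tested.

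The difference between injured and uninjured cord was unlike in grafts and host for 8 of the 10 genes, tested as an interaction over the 4 groups, where 16.8% of all genes tested were called (6.11% with a larger and 10.7% with a smaller value in grafts). The uninjured grafts had themselves been injected in hydrogel, which is not described for the healthy host cord, so the 2 differences are not matched. Myoc moved in opposite directions, rising in grafts and falling in the host (log2FC 5.57 ± 0.30 SE, adjusted p = 3.3e-12). Chil1 rose more in grafts (log2FC 3.30 ± 0.39 SE, adjusted p = 5e-07). Saa2 was called in the same direction (log2FC 5.65 ± 1.59 SE, adjusted p = 0.009), but it passed the count filter through the SCI grafts. It was near 0 in the other groups and too low to test in the host alone, so its call does not compare measured injury effects. The call of Saa2 held in 8 of the 24 fits that each left out 1 library and was lost in DESeq2 and in 1 fit over all groups. Its value ranged from 5.00 without healthy host replicate 8 to 7.10 without uninjured replicate 2, and was 6.99 without host SCI replicate 2. Tgm1 (-3.74 ± 0.54 SE), Lcn2 (-2.94 ± 0.71 SE), Steap4 (-2.92 ± 0.60 SE), Timp1 (-2.71 ± 0.43 SE) and Serpina3n (-2.52 ± 0.34 SE) rose more in the host, from healthy levels that were lower than those of uninjured grafts. The call of Lcn2 was lost in 1 fit over all groups of the experiment (-2.86, adjusted p = 0.019). Cp (-0.21, adjusted p = 0.64) and Cd44 (0.21, adjusted p = 0.62) did not pass. Marker RNA had such interactions too, lower in grafts for 9 of 12 macrophage and microglia, 5 of 7 fibroblast and mural, 3 of 5 NPC, 2 of 5 endothelial and all 5 oligodendrocyte markers and higher for 4 of 7 astrocyte markers, and their part was not tested.

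Other genes of the same responses were followed as lists. Of 9 genes of the STAT3 pathway and its targets, 5 rose and 2 fell of 9 tested with CNTF (median log2FC 0.56, against -0.01 over all genes tested). Bcl3, a nuclear IkB-like protein, rose by 6.12 ± 0.28 SE on the log2 scale (48.2 against 0.706 CPM) and Socs3, a feedback inhibitor of STAT3 signalling, by 4.21 ± 0.33 SE (116 against 6.34 CPM). Both also had interactions between CNTF and 5% FBS, of -4.49 ± 0.42 SE and -3.70 ± 0.35 SE. In SCI against uninjured grafts, 4 rose and 0 fell of 9 tested (median 0.84), and in host astrocytes after SCI 5 rose and 3 fell of 9 tested (median 0.75). Of all genes tested, 19.9% were called in either direction with CNTF, 4.64% in SCI against uninjured grafts and 41.1% in the host.

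Of 12 acute-phase genes, which liver cells secrete in inflammation, most were too low to test in culture. With CNTF, 3 rose and 0 fell of 3 tested, and in SCI against uninjured grafts, 1 rose and 0 fell of 6 tested. The complement component C3 rose in both, with 505 against 53.7 CPM for CNTF against SPONT and 3926 against 1157 CPM for SCI against uninjured grafts. In SCI grafts against host SCI, 4 rose and 0 fell of 7 tested, among them Saa1 at 6.44 against 0.153 CPM and Hp, haptoglobin, at 24.7 against 1.04 CPM. Of 7 other pan-reactive genes, 6 rose and 0 fell of 7 tested with CNTF, 6 rose and 0 fell of 7 tested with 1% FBS, 5 rose and 0 fell of 7 tested in SCI against uninjured grafts and 6 rose and 0 fell of 7 tested in the host. The shares of all genes called higher were 10.8% with CNTF, 5.63% with 1% FBS, 2.09% in SCI against uninjured grafts, 22.2% in the host and 6.79% in SCI grafts against host SCI. S1pr3, a sphingosine 1-phosphate receptor, was at 727 against 52.0 CPM with CNTF and in SPONT.

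Of 11 genes labelled A1 in earlier work on reactive astrocytes, 6 rose and 0 fell of 11 tested with CNTF, 7 rose and 1 fell of 11 tested in 5% FBS, 2 rose and 0 fell of 11 tested in SCI against uninjured grafts and 9 rose and 2 fell of 11 tested in the host. Of 11 genes labelled A2, 6 rose and 0 fell of 11 tested with CNTF, 3 rose and 0 fell of 11 tested in SCI against uninjured grafts and 10 rose and 0 fell of 11 tested in the host. Of all genes tested, 19.9% were called in either direction with CNTF, 34.1% in 5% FBS, 4.64% in SCI against uninjured grafts and 41.1% in the host. Ptx3, a secreted pentraxin of the A2 list, was at 853 against 95.6 CPM in SCI and uninjured grafts. Of 17 genes whose products bind, process or share the pathways of the 10, 5 rose and 1 fell of 12 tested with CNTF, 2 rose and 1 fell of 16 tested in SCI against uninjured grafts and 0 rose and 4 fell of 16 tested between 14 and 5 days, where 19.9%, 4.64% and 5.3% of all genes tested were called. Mmp9, a metalloproteinase that Timp1 inhibits, was at 2.18 against 95.3 CPM at 14 and 5 days, and Tfrc, the transferrin receptor, at 11.8 against 60.3 CPM in SCI and uninjured grafts.

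Over the 23 condition means, the gene whose log2(CPM + 1) followed that of Lcn2 most closely among 14158 genes was Fcgr2b (Pearson r = 0.955), followed by Ptx3 (0.933). For Serpina3n it was S100a4 (0.976) and Ctsb (0.976), for Chil1 Ip6k3 (0.971), for Cp Msrb3 (0.952), for Steap4 Ccn5 (0.959), for Saa2 Slpi (0.972) and Saa1 (0.963), for Myoc Trac (0.944) and for Cd44 Tmem176b (0.970). For Timp1 the closest were Irf5 (0.955) and Cd68 (0.945), both best known from macrophages, and Tgm1 (0.936). Among the 10 genes, the closest pair was Timp1 and Tgm1 (r = 0.936), followed by Chil1 and Myoc (0.896). These values are descriptions over conditions that share cells, depth and tissue, and carry no p.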

How the data were processed

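Ribosome-bound RNA from 107 libraries in 23 conditions was analysed. The deposited values are raw read counts for each gene. In Galaxy, the authors obtained these counts by trimming with Trimmomatic, alignment with HISAT2 2.1.0 to mm10 and counting with featureCounts 1.6.3 at its defaults, so that strand was not used. Library totals ranged from 30473157 to 147764968 (96 paired libraries) and from 12286240 to 18085106 (11 single-read libraries), and 0 pairs of libraries were identical.

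From the counts, CPM and FPKM (CPM per kilobase of merged exons) were computed. Each comparison used only its own groups in edgeR 4.0.16 (TMM scaling, filterByExpr with a minimum count of 10, quasi-likelihood test), with Benjamini-Hochberg adjustment over all genes tested and a threshold of 0.01. SE is the size of the log2FC divided by the square root of the F statistic. On simulated counts with 200 genes changed 4-fold, 198 were recovered for CNTF against SPONT (14879 genes simulated) and 129 for SCI against uninjured grafts (15813 genes simulated), with 2 false calls in each. Alternatives were DESeq2 1.42.0, its size factors, no filter, a minimum count of 30, 1 fit over all groups of the experiment, the replicate number as a block, other NPC derivations as reference, and leaving out each library in turn.

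The 10 genes, the marker and pathway lists and the tests were chosen with earlier results of these data known. All 10 members are named. Other genes of a list could be named only among the 3 with the largest change of those called that averaged 5 CPM or more on either side, and pattern neighbours only among the 3 genes with the highest Pearson r to a member, over genes reaching that level in a condition. The study describes its culture experiments as having independent biological replicates, but the sample labels do not tie libraries to separate cultures. For cultured groups, p-values therefore measure only the spread between these samples. Replicate numbers, taken from the labels, were treated as pairs only where the deviations of every same-numbered pair correlated above 0.1, which held for 5% FBS against SPONT (r 0.115–0.319) and for no other comparison.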

Additional observations from a re-analysis of the deposited data

Results flagged for a closer look

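In 15 of 164 groups of 4 to 10 libraries with a mean of at least 1 CPM, 1 library lay apart from the others by Dixon's ratio, a test that chance passes in about 1 of 20 groups. Replicate 5 of the 5-day SCI grafts stood above the other 4 for Lcn2 (445 CPM, the others 18.9–57.5), Steap4 (70.4 CPM) and Tgm1 (61.6 CPM). Replicate 4 of 20% FBS was apart for Myoc (12.9 CPM) and Cd44 (222 CPM), and replicate 4 of 10% FBS for Cd44 (207 CPM). In 1% FBS, replicate 3 was low for Cp (138 CPM) and replicate 4 low for Tgm1 (2.49 CPM). Single values also stood apart for Lcn2 in IGF-1 replicate 4 (4.45 CPM), Chil1 in 10% FBS replicate 2 (8.29 CPM) and in dSCI graft replicate 3 (1420.1 CPM), Steap4 in SPONT replicate 1 (5.56 CPM) and in injured host replicate 2 (145 CPM), Timp1 in healthy host replicate 8 (9.69 CPM), and Serpina3n in NPC P15 D3 replicate 3 (6.83 CPM).

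The effect of CNTF differed with and without 5% FBS, by the interaction in edgeR, for Lcn2 (-4.32), Serpina3n (-2.43), Timp1 (-3.38), Cp (-3.12), Steap4 (-3.26), Tgm1 (-2.54), Myoc (-4.64) and Cd44 (-0.86, all log2). Saa2 (-5.96) was called too, but was too low to test for CNTF against SPONT. The effect of SCI differed between grafts and host astrocytes for Lcn2 (-2.94), Serpina3n (-2.52), Chil1 (3.30), Timp1 (-2.71), Steap4 (-2.92), Tgm1 (-3.74) and Myoc (5.57). Saa2 (5.65) was called too, but was too low to test in the host alone.

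Outside the comparisons, the stem cells from which all NPC were made held 2 of the genes at levels well above NPC P15. Timp1 had a mean of 36.5 CPM in ESC against 0.523 CPM in NPC P15, and Tgm1 a mean of 65.7 CPM against 0.0369 CPM.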

How the results depend on the processing

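Of the values for single genes, 1055 under other settings and 1750 with 1 library left out kept direction and side of the threshold, 22 and 94 lost the call, 37 and 16 gained it, and 4 and 16 changed sign. In 1 fit over all groups 7 genes were higher in SPONT than in NPC P15 (4 otherwise), 4 were lower in CNTF with 5% FBS than in 5% FBS (2 otherwise) and 3 lower in dSCI than in SCI grafts (0 otherwise). DESeq2 called 4 and 3 in the last pair, and 1 lower in SCI grafts than in host SCI. Without a filter 1 was lower in dSCI than in SCI grafts. With NPC P15 D3 as the reference 2 genes (Cp and Cd44) were lower in SPONT, and with D2 3 (also Timp1). The single fit also ended the calls of Timp1 with IGF-1, Tgm1 in CNTF with 5% FBS against CNTF, Tgm1 in SCI grafts against host SCI, and the graft by host interactions of Lcn2 and Saa2. The cause of these shifts was not tested.

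The replicate number as a block added Chil1 for 5% FBS against SPONT, the only comparison treated as paired, and changed no other call there. No label states that libraries with the same number are pairs. For 10% FBS against SPONT the mean r was 0.259, above the 0.214 of 5% FBS, but its lowest r was 0.078. In the comparisons not treated as paired, the block took the count for IGF-1 from 2 to 0 and that for dSCI against uninjured grafts from 8 to 0. It also ended the calls of Saa2 in 1% FBS, of Cp and Steap4 between 14-day and 5-day grafts, of Tgm1 in SCI grafts against host SCI, and of the interactions of Tgm1 (CNTF by serum) and Saa2 (graft by host), and added Serpina3n and Tgm1 in 10% FBS and Cd44 in SCI against uninjured grafts. With 1 library left out, the count ranged over 0–3 higher and 0–1 lower for IGF-1, 1–2 lower for 20% FBS against SPONT, 4–8 higher for dSCI against uninjured grafts, 0–1 lower for dSCI against SCI grafts and 0–1 lower for SCI grafts against host SCI.

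Signs changed only where the reported difference was not called. For IGF-1, Lcn2 (-0.03) was 0.0060 in 1 fit over all groups and 0.077 with the block. For SPONT against NPC P15, Timp1 was -0.28 with D3 and -1.39 with D2 as the reference. With 1 library left out, the log2FC of Lcn2 and Cd44 for IGF-1 ranged over -0.22 to 0.31 and -0.15 to 0.021, that of Cd44 for SPONT over -0.17 to 0.021, and that of Saa2 for 20% against 1% FBS over -0.054 to 0.51. For CNTF with 5% FBS against 5% FBS the ranges were -0.62 to 0.071 (Lcn2), -0.075 to 0.41 (Steap4) and -0.0074 to 0.12 (Cd44). Cd44 in uninjured grafts against NPC DCH ranged over -0.037 to 0.43, Steap4 in dSCI against SCI grafts over -0.28 to 0.00071, and Timp1 in SCI grafts against host SCI over -0.34 to 0.22.

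Depth limits Saa2 most, which had 0 counts in many libraries, and the 5-day grafts, whose totals are the lowest. On the TMM scale 19 of 230 mean levels moved by more than 1 SD.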

Other observations

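For 7 of the 8 genes that were highest in SCI grafts, all but Tgm1, the libraries of the next condition overlapped. Lcn2, Chil1 and Saa2 overlapped with dSCI grafts, and Timp1 had a mean of 245 CPM in SCI grafts and 241 CPM in injured host astrocytes. Myoc had a mean of 379 ± 99.1 CPM (SD, n = 5) in SCI grafts and 375 ± 89.9 CPM (n = 9) in healthy host astrocytes, with overlapping libraries, although injury raised it in grafts and lowered it in the host. Steap4 had a mean of 119.9 CPM in SCI grafts, 116 CPM in dSCI grafts and 112 CPM in cultures with CNTF and 5% FBS, all overlapping. Cd44 had a mean of 264 CPM in SCI grafts, 249.9 CPM in 5-day grafts and 227 CPM in injured host astrocytes, again with overlap. By contrast, Tgm1 in ESC (mean 65.7 CPM) lay above each of the 8 differentiated cultures, where its highest mean was 4.82 CPM in 1% FBS.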
